A study of Arabidopsis thaliana with 18 samples.

Results

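Seed maturation regulators and their repressors were followed in seeds of Arabidopsis thaliana as 10 loci chosen by name: ABI3, FUS3, LEC2, LEC1, L1L, ABI4, WRI1, VAL1, VAL2 and PKL. Their loci are ABI3 AT3G24650 (chr3:8997370-9001185, plus strand), FUS3 AT3G26790 (chr3:9853828-9856212, minus), LEC2 AT1G28300 (chr1:9896867-9899876, minus), LEC1 AT1G21970 (chr1:7727577-7729649, minus) and L1L AT5G47670 (chr5:19314778-19316169, plus). The others are ABI4 AT2G40220 (chr2:16796247-16797585, minus), WRI1 AT3G54320 (chr3:20114488-20118745, plus), VAL1 AT2G30470 (chr2:12980428-12985277, minus), VAL2 AT4G32010 (chr4:15479379-15485354, plus) and PKL AT2G25170 (chr2:10713807-10724106, plus), with coordinates of RefSeq genes on TAIR10.1. All 10 were found among the 33602 loci of the count files, and 8 of the 10 passed the filter on low counts, as did 18061 loci in all. LEC1 and LEC2 did not pass it and are given by their counts alone. Polyadenylated RNA of whole seeds was sequenced as stranded paired-end libraries from wild type, an mpk8 mutant and a tcp14 mutant, which the series describes as gene knock outs in a study of dormancy release. The plants grew on soil at 21 °C. Seeds of each genotype were taken either untreated and dry, or dormant and kept for 24 h on wet filter paper in the dark at 25 °C. Each of the 6 groups had 3 libraries, called biological replicates without a statement that they came from separate plants or seed lots, so the p-values measure only the spread between these libraries. The alleles and the wild-type accession were not stated in the labels, and no group combined both mutations.

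Embryo maturation in Arabidopsis is run by a small network of transcription factors. ABI3, FUS3 and LEC2 carry a B3 domain that binds the RY motif, while LEC1 and its close relative L1L are NF-YB subunits that join other NF-Y subunits on DNA. Together they turn on storage protein, oil body and late embryogenesis genes. ABI4 and WRI1 are AP2-type factors. ABI4 acts in the response to abscisic acid and sugar, and WRI1 turns on glycolysis and fatty acid synthesis for oil. VAL1 and VAL2 are B3 proteins that bind the same RY motif and silence the network with Polycomb proteins, and PKL is a chromatin remodeller of the CHD3 type that keeps embryonic genes off after germination.

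Because both the activators and the VAL repressors read the RY motif, the 250 bases before the annotated start of each of the 10 genes were searched on both strands for its core, CATGCA. Also searched was the G-box CACGTG, bound by bZIP factors that work with ABI3. The RY core was present in 2 of the 10 windows, those of FUS3 and VAL1, and in 8.51% of 26706 windows of the same length. FUS3 held 1 match, 25 bases before the start. VAL1 held 4, at 250, 231, 229 and 227 bases before the start, the last 3 overlapping each other. The G-box was in none of the 10 and in 6.58% of all windows. A match describes letters and not a bound site, and a window without a match says nothing about the factor. The sequences come from RefSeq on TAIR10.1, both from the minus strand and written 5′ to 3′, with the matches in capitals. They are shown because these windows hold the matches and because their genes carry several of the differences below.
FUS3, chr3:9856213-9856462: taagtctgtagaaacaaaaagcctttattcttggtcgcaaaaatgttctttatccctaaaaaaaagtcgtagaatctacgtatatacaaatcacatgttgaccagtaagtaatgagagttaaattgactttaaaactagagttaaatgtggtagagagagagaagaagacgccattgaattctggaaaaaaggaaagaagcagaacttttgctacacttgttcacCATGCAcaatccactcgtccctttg
VAL1, chr2:12985278-12985527: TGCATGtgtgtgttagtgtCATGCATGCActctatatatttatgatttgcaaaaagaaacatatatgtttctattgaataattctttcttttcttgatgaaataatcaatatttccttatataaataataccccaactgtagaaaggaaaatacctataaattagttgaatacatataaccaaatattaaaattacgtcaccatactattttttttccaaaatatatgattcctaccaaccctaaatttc

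Libraries held 12170793 to 21233207 counted read pairs. Levels are given as CPM, the usual depth-normalised count, here of read pairs with TMM scaling. TMM sets the bulk of genes equal between libraries. TMM factors were 0.707 to 0.777 in dry and 1.16 to 1.6 in imbibed libraries. Scaling by library totals instead moved the median log2 change of all genes on imbibition by 1.09 in wild type, 0.82 in mpk8 and 0.73 in the libraries labelled tcp14. It moved the median difference from wild type at 24 h by -0.33 in both lines. With library totals, 79.6%, 77.5% and 75.6% of calls on imbibition in these genotypes were higher, against 53.4%, 53.4% and 52.7% with TMM. At 24 h, 19.8% (mpk8) and 12.6% (tcp14) of the calls against wild type were higher, against 52.3% and 49.4%. The same share was 19.9% against 58.6% for mpk8 and wild type dry, 26% against 50.7% for both lines dry, 26.4% against 61.5% for the mpk8 interaction and 12% against 58% for the tcp14 interaction. A direction given below therefore holds relative to most genes. Each called direction of a member that library totals turned is named with its value.

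MPK8, the kinase gene named by the label, gave 11.4 ± 0.588 CPM in dry wild type (mean and SD of 3 libraries, as below) against 4.04 ± 0.502 in dry mpk8, and at 11.7 ± 0.849 and 4.31 ± 0.397 at 24 h. It was 2.81-fold lower dry and 2.72-fold lower at 24 h (adjusted p = 1.25e-07 and 6.67e-11, quasi-likelihood test of edgeR with Benjamini-Hochberg adjustment, as for every adjusted p below). TCP14 went against its label. It stood at 6.86 ± 1.39 CPM in dry wild type and 44.1 ± 0.501 in dry libraries labelled tcp14, 6.46-fold higher (adjusted p = 2.17e-14), and at 15.7 ± 1.98 and 34.5 ± 3.14 CPM at 24 h. Counts over the transcript model do not show whether that transcript is intact, so these libraries are called tcp14-labelled throughout. The seed label was borne out by storage protein, oil body, late embryogenesis and other maturation genes. The 20 listed summed to 308000 to 331000 CPM in dry wild type. Of 6 listed endosperm genes, RGE1, IKU2, FIS2 and FWA were at 0 in dry wild type, and IKU2 was at 0 in every group. Of 6 seed coat genes, TT12 was at 0 in every group.

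In dry wild-type seeds ABI3 was the member with the highest level per length, at 60.8 ± 1.51 CPM per kb of its transcript model. PKL followed at 18.1 ± 0.741, VAL1 at 15.8 ± 0.266, FUS3 at 12.9 ± 0.396 and VAL2 at 4.43 ± 0.615 CPM per kb. L1L reached 1.76 ± 0.306, ABI4 1.23 ± 0.266 and WRI1 0.705 ± 0.0744 CPM per kb. After 24 h ABI3 still led at 72.4 ± 5.86 CPM per kb. ABI4 had moved from near the bottom to the next place at 32.9 ± 2.47, while FUS3 was at 5.79 ± 0.572, below VAL2 at 7.91 ± 0.349.

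LEC1 and LEC2, the activators best known from early embryos, were at the limit of detection. LEC1 gave 0, 1 and 1 pairs in the imbibed wild-type libraries, 1 pair in each of the dry mpk8 libraries, 1 pair in a single dry tcp14-labelled library and 0 in the other 3 groups. LEC2 gave 1 pair in a single dry wild-type library, 5 in a single imbibed wild-type library, 2, 2 and 0 in imbibed mpk8, and 0 in the other 3 groups. A group without a pair allows up to 3 pairs, which is 0.0944 CPM in dry wild type, 0.0784 in dry mpk8, 0.0424 in imbibed mpk8, 0.0763 in dry tcp14-labelled and 0.0484 in imbibed tcp14-labelled seeds, for counting error only. With every gene that had a pair in the fit, neither was called in any of the 11 comparisons, and the smallest adjusted p was 0.0695, for LEC1 on imbibition of mpk8.

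**Figure D1:**
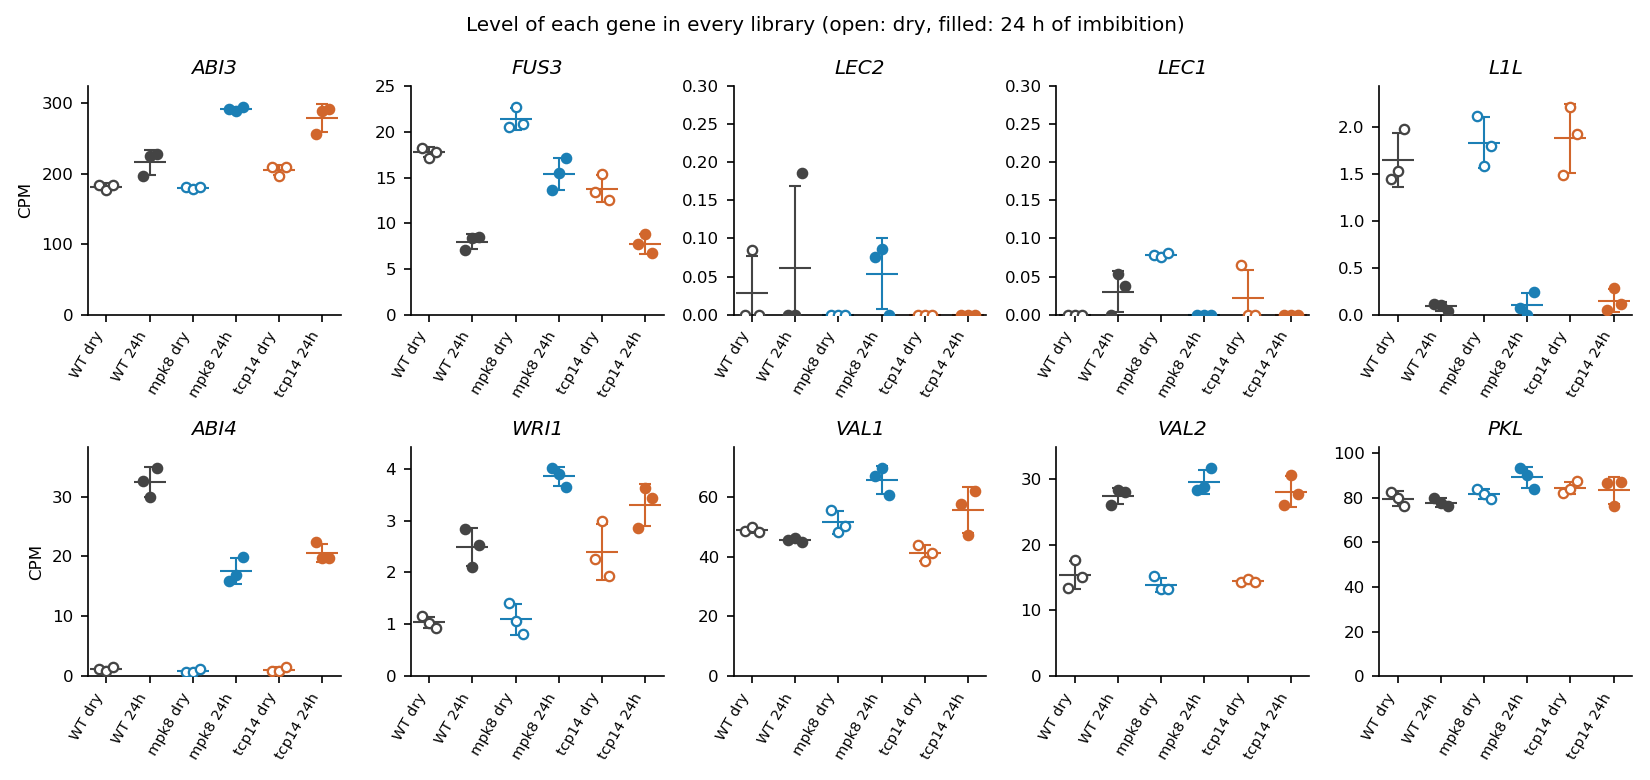
CPM of each of the 10 genes in every library by group, with open points for dry and filled points for imbibed seeds, and bars for the mean and SD of 3 libraries, each panel on its own linear axis from 0. ABI4 rises from near 0 to 29.9 to 34.8 CPM in imbibed wild type and lies lower in both mutant-labelled lines, and FUS3 in imbibed mpk8 lies at 13.6 to 17.2 CPM, above imbibed wild type.

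Imbibition of wild-type seeds was the reference course. Of the 8 members tested, 4 were called higher and 2 lower, while 46% of all tested genes were called higher, 40.1% lower and 86.1% in either direction. A call was thus the usual outcome for any gene, and the members' count does not set them apart. ABI4 showed the widest change, and L1L nearly disappeared.

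ABI4 had 1.25, 0.935 and 1.46 CPM in the dry wild-type libraries and 32.7, 29.9 and 34.8 CPM in the imbibed ones. The groups lay far apart. The rise was 27.0-fold (log2 4.75, SE 0.168, adjusted p = 6.35e-18), and it was 20.1-fold in mpk8 and 18.8-fold in tcp14-labelled seeds (adjusted p = 2.07e-16 and 1.05e-16). Scaled by library totals, the log2 rises were 5.84, 5.15 and 4.96.

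L1L had 15, 18 and 19 pairs in dry wild type, and 3, 2 and 1 pairs in imbibed libraries of similar depth. Every dry library lay above every imbibed one. The fitted fall was 18.0-fold in wild type, 17.3-fold in mpk8 and 12.2-fold in tcp14-labelled seeds, with log2 values of -4.17 (95% interval -5.26 to -3.08), -4.11 and -3.60. The adjusted p were 1.19e-07, 4.81e-08 and 2.11e-07. By library totals they were -3.12, -3.31 and -2.89.

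FUS3 fell from 18.3, 17.2 and 17.8 CPM in dry wild type to 7.08, 8.34 and 8.53 CPM, without overlap. The change was 2.22-fold (log2 -1.15, SE 0.112, adjusted p = 1.36e-09). It fell by 0.48 on the log2 scale in mpk8 and by 0.82 in tcp14-labelled seeds (adjusted p = 0.000166 and 5.99e-07). These falls were relative to most genes. Scaling by library totals gave FUS3 values of -0.06 in wild type (adjusted p = 0.623), 0.35 in mpk8, a rise (adjusted p = 0.00753), and -0.09 in tcp14-labelled seeds (adjusted p = 0.498).

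ABI3 moved little beside these. Its dry wild-type libraries had 184, 176 and 184 CPM and its imbibed ones 196, 225 and 227 CPM, all above the dry ones. The rise was 1.19-fold in wild type, 1.62-fold in mpk8 and 1.36-fold in tcp14-labelled seeds (adjusted p = 0.000366, 1.05e-10 and 2.7e-07). Library totals gave log2 rises of 1.34, 1.52 and 1.16 in place of 0.25, 0.70 and 0.44.

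WRI1 was low throughout, with 1.15, 1.02 and 0.937 CPM in dry and 2.83, 2.11 and 2.52 CPM in imbibed wild type. The groups did not overlap, and the rise was 2.41-fold (adjusted p = 3.85e-05). It was 3.50-fold in mpk8 (adjusted p = 4.58e-08) and 1.40-fold in tcp14-labelled seeds, where dry and imbibed libraries overlapped (adjusted p = 0.0216). That last call was lost without imbibed tcp14-labelled replicate 2 (adjusted p = 0.0796) or dry replicate 1 (0.067) or 3 (0.121).

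The repressors split. VAL2 rose 1.78-fold in wild type, from 15.4 ± 2.13 to 27.4 ± 1.21 CPM (adjusted p = 8.4e-09), and 2.13-fold in mpk8 and 1.94-fold in tcp14-labelled seeds (adjusted p = 5.88e-11 and 6.75e-10). VAL1 had 48.9 ± 0.822 CPM in dry and 45.6 ± 0.719 in imbibed wild type, a log2 difference of -0.10 (95% interval -0.27 to 0.07, adjusted p = 0.242). It rose by 0.35 on the log2 scale in mpk8 and by 0.43 in tcp14-labelled seeds (adjusted p = 0.00029 and 4.24e-05). PKL had 79.6 ± 3.26 and 77.8 ± 1.87 CPM in wild type, a log2 difference of -0.03 (95% interval -0.15 to 0.09), and -0.02 in tcp14-labelled seeds. PKL in mpk8 was 0.13 higher at 24 h (adjusted p = 0.0432), a call lost without imbibed replicate 1 or 2 or dry replicate 2 or 3 (adjusted p up to 0.171) and with DESeq2 (adjusted p = 0.082). With library totals VAL1 and PKL rose in wild type, by 0.99 and 1.05, so whether they moved at all depended on the scaling.

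Of the 8 members, 6 were called higher and 2 lower on imbibition in mpk8, against 44.4%, 38.7% and, in either direction, 83.1% of all genes. In tcp14-labelled seeds 5 were called higher and 2 lower, against 43.8%, 39.3% and 83.1%. These counts were again near the background.

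**Figure D2:**
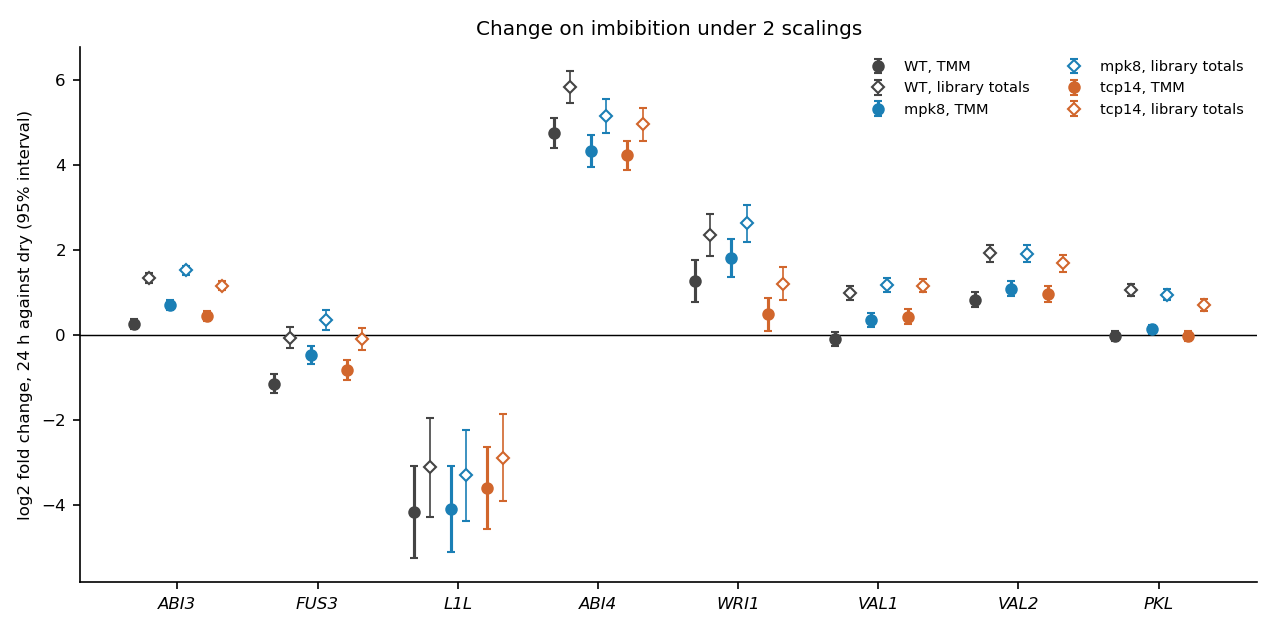
Log2 change from dry to imbibed seeds for the 8 tested genes in each genotype, with 95% intervals, filled circles for TMM scaling and open diamonds for library totals. ABI4 lies above 4 and L1L below -2.5 under both scalings, whereas FUS3, VAL1 and PKL cross or leave 0 when the scaling changes.

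Ratios between members within a library do not depend on scaling. Counts were set against ABI3, a denominator chosen after the values were seen because it has many pairs, and the ratios are a description. In wild type FUS3 went from 9.77 ± 0.139 pairs per 100 ABI3 pairs dry to 3.69 ± 0.0717 at 24 h, in mpk8 from 11.9 ± 0.763 to 5.28 ± 0.574, and in tcp14-labelled seeds from 6.73 ± 0.958 to 2.78 ± 0.421. All libraries of each dry group lay above those of its imbibed group. ABI4 went from 0.667 ± 0.131 to 15.1 ± 1.71 per 100 ABI3 pairs in wild type. It went from 0.482 ± 0.128 to 6.01 ± 0.675 in mpk8 and from 0.528 ± 0.188 to 7.45 ± 1.12 in tcp14-labelled seeds. The denominator ABI3 was itself 1.35-fold higher in imbibed mpk8 and 1.29-fold higher in imbibed tcp14-labelled seeds than in wild type with TMM. PKL went from 43.9 ± 2.22 to 36.2 ± 3.93 in wild type, from 45.4 ± 1.44 to 30.5 ± 1.81 in mpk8 and from 41.1 ± 1.84 to 30.0 ± 3.78 in tcp14-labelled seeds. VAL1 went from 26.9 ± 1.14 to 21.2 ± 1.8 in wild type and from 28.6 ± 2.01 to 22.5 ± 1.8 in mpk8. In tcp14-labelled seeds VAL1 stood at 20 ± 0.771 and 20.1 ± 3.3, and the imbibed groups overlapped. WRI1 went from 0.571 ± 0.0597 to 1.16 ± 0.258 in wild type and from 0.609 ± 0.168 to 1.32 ± 0.0745 in mpk8. In tcp14-labelled seeds WRI1 stood at 1.17 ± 0.306 and 1.18 ± 0.0707. With 3 libraries a group an exact permutation test cannot reach p = 0.05, so none was run on these ratios.

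**Figure D3:**
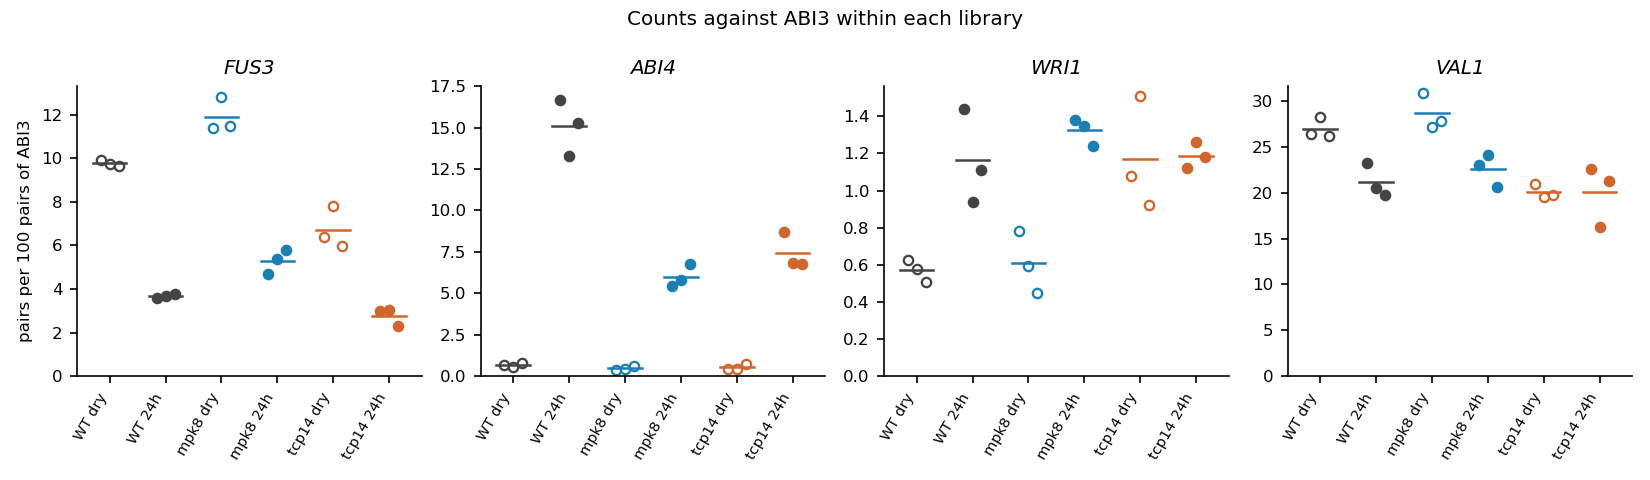
Counted pairs of FUS3, ABI4, WRI1 and VAL1 per 100 pairs of ABI3 in each library, by group, with lines at the mean of 3 libraries. Imbibed wild type reaches 13.3 to 16.7 for ABI4, above imbibed mpk8 at 5.45 to 6.76 and imbibed tcp14-labelled seeds at 6.79 to 8.73, and every imbibed group lies below its dry group for FUS3.

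Dry mpk8 and wild-type seeds were compared to see what differed before water uptake. No member was called, and 2.62% of all genes were, 1.53% higher and 1.09% lower. FUS3 came closest, at 20.6, 22.8 and 20.8 CPM in mpk8 above 17.2 to 18.3 CPM in wild type without overlap (log2 0.27, 95% interval 0.05 to 0.49, unadjusted p = 0.019, adjusted p = 0.189). No other member had an unadjusted p under 0.05, and DESeq2 called none either. The interval for ABI3 was -0.14 to 0.11, that for VAL1 -0.10 to 0.25 and that for PKL -0.09 to 0.16, while those for L1L (-0.55 to 0.87) and WRI1 (-0.54 to 0.70) were wide because counts were few.

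In dry tcp14-labelled seeds 1 member was called higher and 1 lower than in wild type, against 6.12% and 5.27% of all genes, or 11.4% in either direction. WRI1 had 2.27, 2.98 and 1.93 CPM against 0.937 to 1.15 in wild type, without overlap. It was 2.26-fold higher (log2 1.18, SE 0.259, adjusted p = 0.00356), and 1.2 on the log2 scale with library totals. FUS3 had 13.4, 15.4 and 12.5 CPM, all below the 17.2 to 18.3 CPM of wild type, and was 1.29-fold lower (adjusted p = 0.0328). That call was lost without any one of the dry wild-type libraries or without dry tcp14-labelled replicate 1 or 3 (adjusted p = 0.0675 to 0.142), and with library totals (adjusted p = 0.0874). ABI3 was at 206 ± 7.2 CPM against 182 ± 4.51 (log2 0.18, adjusted p = 0.0511) and VAL1 at 41.2 ± 2.73 against 48.9 ± 0.822 (log2 -0.24, adjusted p = 0.0693). Neither overlapped wild type. ABI3 was called with library totals, single reads, the replicate block, no low-count filter and the compared groups alone, and VAL1 with the last 2 of these, DESeq2 and DESeq2 size factors.

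WRI1, FUS3 and ABI3 lie on chromosome 3, as does TCP14. Of the 50 tested genes nearest to each in locus order, 8% around WRI1, 8% around FUS3 and 4% around ABI3 were called at 2-fold or more in dry tcp14-labelled seeds, against 2.09% of all genes. The share was 0 around the other 5 tested members. In dry mpk8 it was 0 around all 8, against 0.299% of all genes. What these neighbourhoods have to do with the differences in WRI1 and FUS3 was not tested.

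At 24 h the lines differed more, and both comparisons share the same wild-type libraries. In mpk8 5 members were called higher and 1 lower, against 33.8%, 30.8% and, in either direction, 64.6% of all genes. In tcp14-labelled seeds 2 were called higher and 1 lower, against 27.3%, 28% and 55.2%. By library totals the counts turned to 2 higher (FUS3 and VAL1) and 2 lower (ABI4 and VAL2) in mpk8, and to 0 higher and 4 lower (FUS3, ABI4, VAL2 and PKL) in tcp14-labelled seeds. Of all 18061 genes, library totals called 11243 in mpk8 and 11205 in tcp14-labelled seeds, 19.8% and 12.6% of these higher. A call of any gene was thus mostly lower under that scaling, and these counts do not set the members apart. Under both scalings ABI4 was called lower in both lines.

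ABI4 had 15.9, 16.8 and 19.9 CPM in imbibed mpk8 and 22.3, 19.7 and 19.8 CPM in imbibed tcp14-labelled seeds, while the imbibed wild-type libraries had 29.9 to 34.8. Neither line overlapped wild type. It was 1.85-fold lower in mpk8 (log2 -0.89, SE 0.0996, adjusted p = 5.59e-08) and 1.57-fold lower in tcp14-labelled seeds (log2 -0.65, SE 0.0992, adjusted p = 7.93e-06). With library totals the differences were -1.23 and -0.99 (adjusted p = 4.22e-09 and 1.71e-07). Whether its rise on imbibition differed from that of wild type was a separate test, which did not pass (interaction log2 -0.42, adjusted p = 0.355 in mpk8 and -0.52, adjusted p = 0.225 in tcp14-labelled seeds), with wide intervals of -1.13 to 0.29 and -1.19 to 0.14. Library totals gave -0.88 in tcp14-labelled seeds, which was called (adjusted p = 0.0487), so that this call depended on the scaling.

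FUS3 had 13.6, 15.5 and 17.2 CPM in imbibed mpk8 against 7.08, 8.34 and 8.53 in imbibed wild type, without overlap. It was 1.93-fold higher (log2 0.95, SE 0.105, adjusted p = 5.02e-08), and 0.61 on the log2 scale with library totals (adjusted p = 0.000106). In imbibed tcp14-labelled seeds it had 7.70, 8.79 and 6.69 CPM, overlapping wild type, a log2 difference of -0.04 (95% interval -0.28 to 0.19). With library totals that difference was -0.37 (adjusted p = 0.0145).

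ABI3 had 291, 289 and 295 CPM in imbibed mpk8 and 256, 289 and 292 CPM in imbibed tcp14-labelled seeds, all above the 196 to 227 CPM of wild type. It was 1.35-fold and 1.29-fold higher (adjusted p = 6.48e-07 and 1.13e-05). These calls rested on TMM, since library totals gave log2 differences of 0.10 and 0.03 (adjusted p = 0.0947 and 0.628).

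VAL1 had 67.0, 69.7 and 60.6 CPM in imbibed mpk8 and 57.8, 47.2 and 62.2 CPM in imbibed tcp14-labelled seeds, against 44.9 to 46.3 CPM in wild type. It was 1.45-fold and 1.22-fold higher (adjusted p = 2.54e-06 and 0.00311). With library totals the log2 difference was 0.20 in mpk8 (adjusted p = 0.0225) and -0.05 in tcp14-labelled seeds (adjusted p = 0.596). PKL was 1.15-fold higher in mpk8 (89.1 ± 4.61 against 77.8 ± 1.87 CPM, adjusted p = 0.00363), and WRI1 1.54-fold higher (3.86 ± 0.187 against 2.49 ± 0.361 CPM, adjusted p = 0.002). Library totals gave -0.14 for PKL and 0.29 for WRI1, neither called. VAL2 differed by 0.11 (95% interval -0.05 to 0.27) in mpk8 and by 0.03 (-0.13 to 0.19) in tcp14-labelled seeds, and with library totals by -0.23 and -0.30, both then called lower.

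**Figure D4:**
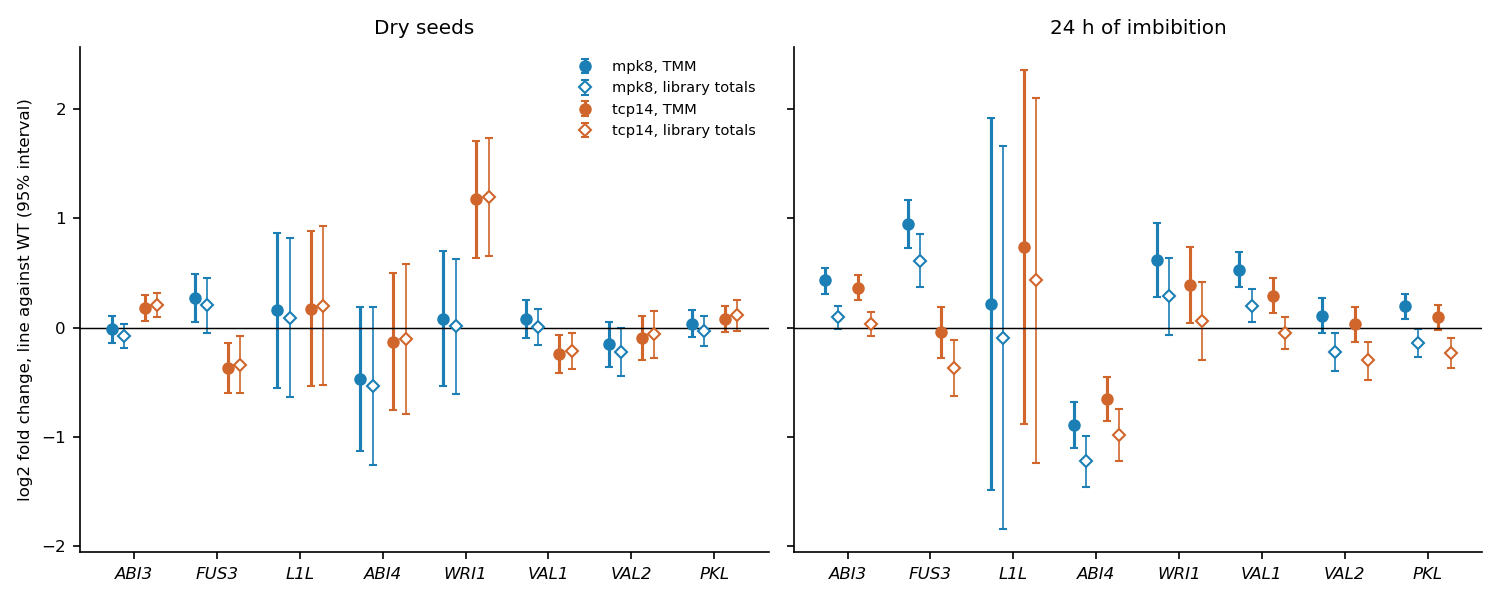
Log2 difference of each line from wild type for the 8 tested genes, dry (left) and after 24 h of imbibition (right), with 95% intervals, filled circles for TMM and open diamonds for library totals. Dry WRI1 in tcp14-labelled seeds at 1.18, imbibed FUS3 in mpk8 at 0.95 and imbibed ABI4 below 0 in both lines keep their side of 0 under both scalings.

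The interaction tests asked whether the change on imbibition differed between a line and wild type. For mpk8 they called 3 members higher and none lower, against 24%, 15% and, in either direction, 39% of all genes. ABI3 rose more (log2 0.45, SE 0.0823, adjusted p = 0.000164), FUS3 fell less (0.68, SE 0.15, adjusted p = 0.00101) and VAL1 differed by 0.46 (SE 0.114, adjusted p = 0.0028). For tcp14-labelled seeds VAL1 alone was called, higher by 0.53 (SE 0.116, adjusted p = 0.000992), against 19.2% of all genes higher, 13.9% lower and 33.2% in either direction. With library totals none of these calls held, with adjusted p of 0.0617, 0.0646 and 0.185 for mpk8 and 0.222 for VAL1 in tcp14-labelled seeds. In tcp14-labelled seeds 3 other members were then called, all lower: ABI4 (-0.88, adjusted p = 0.0487), WRI1 (-1.14, adjusted p = 0.00658) and PKL (-0.35, adjusted p = 0.00493). Of all 18061 genes, library totals called 6212 in the mpk8 and 7383 in the tcp14 interaction, 26.4% and 12% of these higher. Most calls of any gene were thus lower there.

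Set directly against each other, the lines differed in FUS3 in both states. Dry, 2 members were called higher and 2 lower in mpk8 than in tcp14-labelled seeds, against 12.7%, 12.3% and, in either direction, 25% of all genes. FUS3 was 1.56-fold higher (adjusted p = 0.000113), VAL1 1.25-fold higher (adjusted p = 0.00705), WRI1 2.14-fold lower (adjusted p = 0.00193) and ABI3 1.14-fold lower (adjusted p = 0.0181). The ABI3 call was lost without dry mpk8 replicate 2 or dry tcp14-labelled replicate 1 or 3 (adjusted p = 0.0635 to 0.0667). At 24 h 2 were called higher and none lower, against 9.45%, 11.6% and 21%. FUS3 was 1.98-fold higher in mpk8 (log2 0.99, SE 0.107, adjusted p = 3.67e-07) and 0.98 with library totals, and VAL1 was 1.18-fold higher (adjusted p = 0.0274) with overlapping libraries. That VAL1 call was lost without imbibed mpk8 replicate 1 or 2 or tcp14-labelled replicate 2 (adjusted p = 0.0879 to 0.192).

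The genes that the network acts on were read from lists written from general knowledge, with earlier results of these data known. The counts for these and the further lists below are therefore a description and not independent support. Of 20 storage protein, oil body, late embryogenesis and other maturation genes known as targets of ABI3, FUS3, LEC2 or LEC1, 20 were called lower on imbibition of wild type (40.1% of all genes were), with a median log2 change of -2.99 against 0.14 for all genes. DOG1, a dormancy gene, fell 40.6-fold, the dehydrin gene RAB18 20.9-fold and the cruciferin gene CRU2 14.5-fold. In mpk8 and in tcp14-labelled seeds 19 of the 20 were lower and 1 higher, with medians of -2.07 and -1.98. With library totals 19 were lower and 1 higher on imbibition of wild type. The counts were then 14 lower and 1 higher in mpk8, and 15 lower and 2 higher in tcp14-labelled seeds. Of all genes called under that scaling, 79.6% (wild type), 77.5% (mpk8) and 75.6% (tcp14-labelled) were higher. At 24 h 20 of 20 were higher than in wild type in each line, against 33.8% of all genes in mpk8 and 27.3% in tcp14-labelled seeds, with medians of 1.01 in mpk8 and 1.03 in tcp14-labelled seeds against 0.04 and 0 for all genes. With library totals 20 of 20 were also higher in each, with medians of 0.67 and 0.69. Of all 18061 genes, 2223 and 1415 were then called higher. The cruciferin gene CRU3 had 11330 ± 1430 CPM in imbibed wild type, 26500 ± 123 in mpk8 and 37150 ± 7800 in tcp14-labelled seeds, 2.34-fold and 3.28-fold higher (adjusted p = 1.18e-07 and 2.38e-09). M17 and PAP85 in mpk8, at 2.53-fold and 2.47-fold, and CRA1 in tcp14-labelled seeds, at 2.60-fold, were the other 3 named by size. SESA4 was 3.22-fold higher in tcp14-labelled seeds. It belongs to a tandem family of near copies, and pairs with equally good hits were removed before counting.

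Plastid glycolysis and fatty acid synthesis genes known as targets of WRI1 went the other way. On imbibition of wild type 19 of 22 rose and 2 fell, against 46% and 40.1% of all genes, with a median log2 change of 2.87. PDH-E1 BETA, a subunit of the plastid pyruvate dehydrogenase, rose 43.5-fold, CAC1, the biotin carrier of acetyl-CoA carboxylase, 21.3-fold, and MOD1, the enoyl reductase, 18.9-fold. At 24 h 16 of 22 were lower and 3 higher in mpk8 than in wild type, and 15 lower and 2 higher in tcp14-labelled seeds. Of all genes, 30.8% and 28% were called lower and 33.8% and 27.3% higher. The list had medians of -0.75 and -0.52. With library totals 18 and 19 were lower. Of all 18061 genes, 11243 and 11205 were then called, 19.8% and 12.6% of these higher and the rest lower. PDH-E1 BETA had 9.85 ± 1.52 CPM in wild type, 1.57 ± 0.528 in mpk8 and 3.93 ± 1.17 in tcp14-labelled seeds, and ACP4, an acyl carrier protein, 33.4 ± 4.87, 12.4 ± 0.527 and 13.8 ± 1.95. WRI1 itself was called higher at 24 h in mpk8 with TMM but not with library totals, as given above. In imbibed tcp14-labelled seeds WRI1 differed from wild type by 0.39 on the log2 scale (adjusted p = 0.0522), without overlap. With library totals that difference was 0.06 (adjusted p = 0.786). The TMM difference was called without imbibed wild-type or tcp14-labelled replicate 1 (adjusted p = 0.0376 and 0.0256). In dry tcp14-labelled seeds, where WRI1 was 2.26-fold higher, 1 of the 22 was called higher and 2 lower, with a median of 0.13 against 0.02 for all genes. The gene called higher was PKP-ALPHA, a plastid pyruvate kinase subunit (1.71-fold, adjusted p = 7.28e-10). Those called lower were SUS2 (1.82-fold, adjusted p = 0.0255, with overlapping libraries) and LIP1 (1.15-fold, adjusted p = 0.0305).

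Of 14 tested partners among other maturation factors, 4 rose and 8 fell on imbibition of wild type, against 46% and 40.1% of all genes. With library totals 7 rose and 3 fell, with a median log2 change of 0.44 against 1.23 for all genes. Of all 18061 genes, 13027 were then called higher. HSFA9, a seed heat stress factor, fell 18.9-fold and ABI5, a bZIP factor of the abscisic acid response, 9.81-fold. ADAP went the other way and rose 5.80-fold (adjusted p = 9.34e-05), from 5 pairs in all over the dry wild-type libraries. At 24 h 8 were higher and 2 lower in mpk8, and 7 higher and 1 lower in tcp14-labelled seeds. Of all genes these shares were 33.8% and 30.8%, and 27.3% and 28%. HSFA9 was 2.44-fold and 2.28-fold higher. ADAP was 2.22-fold lower in mpk8 and 1.89-fold lower in tcp14-labelled seeds (adjusted p = 0.00434 and 0.0227). Under library totals the counts of the list at 24 h were 3 higher and 4 lower, and 3 higher and 5 lower. Of all genes then called, 19.8% and 12.6% were higher. The balance of this list thus turned with the scaling, as did that of genes at large. ABI5 had 114 ± 7.61 CPM in imbibed wild type, 194 ± 5.17 in mpk8 and 160 ± 15.6 in tcp14-labelled seeds (adjusted p = 7.33e-10 and 1.18e-06 with TMM).

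Of 19 other tested repressors of the embryo programme, 6 rose and 9 fell on imbibition of wild type, against 46% and 40.1% of all genes. Scaled by library totals, 13 rose and 3 fell, while 13027 of all 18061 genes were called higher. The balance of this list on imbibition turned with the scaling, as did that of genes at large. CLF, a Polycomb histone methyltransferase, rose from 0.907 ± 0.166 to 10.96 ± 1.45 CPM, 12.0-fold, while the Polycomb ring finger genes RING1A and RING1B fell 7.40-fold and 6.13-fold. At 24 h 12 were higher and 5 lower in mpk8, and 10 higher and 5 lower in tcp14-labelled seeds, against 33.8% and 30.8%, and 27.3% and 28%, of all genes, with medians of 0.35 and 0.20. With library totals the counts turned to 4 higher and 7 lower, and 2 higher and 10 lower. Of all genes called under that scaling, 19.8% and 12.6% were higher. CLF was 3.68-fold lower in mpk8 and 2.02-fold lower in tcp14-labelled seeds (adjusted p = 3.15e-09 and 1.68e-05), and RING1A 1.88-fold and 1.75-fold higher.

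**Figure D5:**
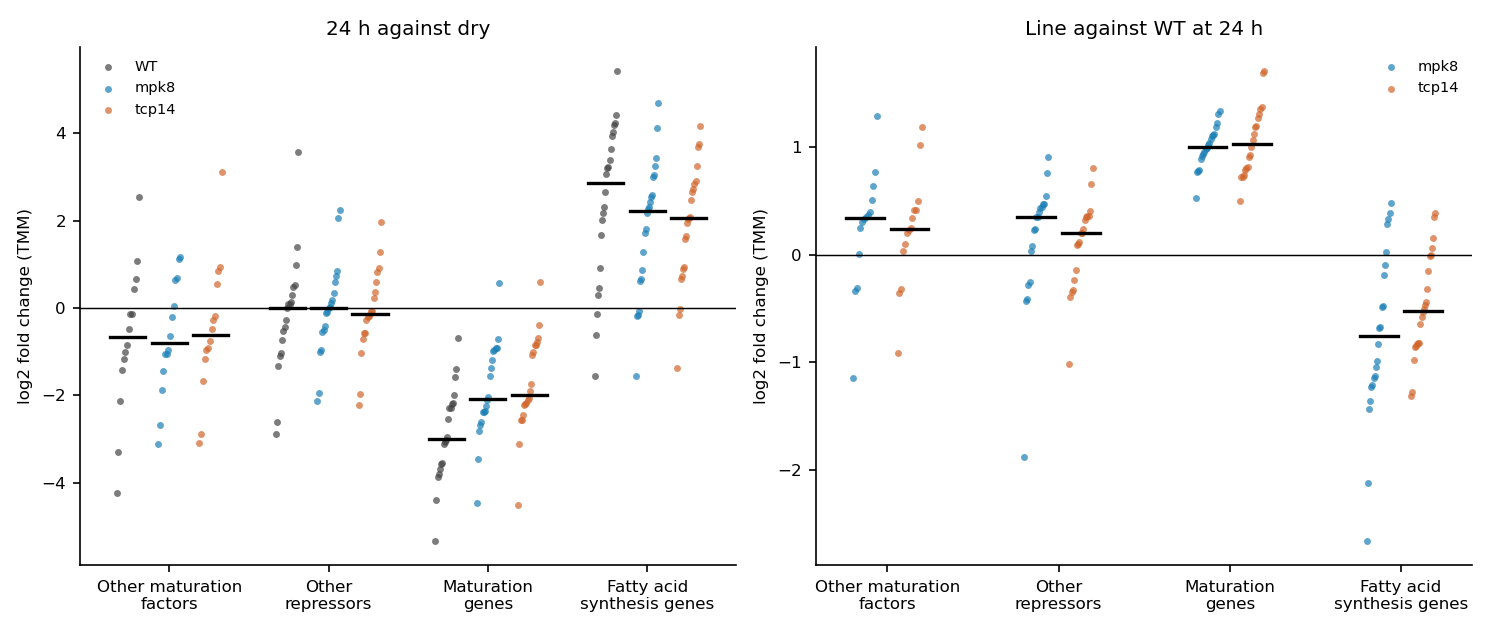
Log2 change of each tested gene in 4 lists, on imbibition in each genotype (left) and in each line against wild type at 24 h (right), with TMM scaling, points for genes and bars for list medians. All 20 maturation genes lie above 0 at 24 h in both lines, and most of the 22 fatty acid synthesis genes lie below 0.

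Markers of other tissues moved along with imbibition and with the lines. Summed over 6 genes, endosperm markers, nearly all from EPR1, stood at 27400 to 30200 CPM in dry and 2550 to 3370 CPM in imbibed wild type, at 6240 to 7400 CPM in imbibed mpk8 and at 4640 to 6640 CPM in imbibed tcp14-labelled seeds. The sum follows EPR1 alone, since FWA went from 0 pairs in dry to 31 pairs over the imbibed wild-type libraries, and AGL62 was not called (log2 -0.30). Summed over 6 genes, seed coat markers at 24 h stood at 12.2 to 14.8 CPM (wild type), 6.01 to 6.81 CPM (mpk8) and 6.53 to 7.87 CPM (tcp14-labelled). Both tested seed coat genes, TTG2 and MUM4, were called lower in each line at 24 h. Summed over 4 genes, green leaf markers stood at 20.7 to 20.9 CPM in dry and 262 to 312 CPM in imbibed wild type, at 83.0 to 92.1 CPM in imbibed mpk8 and at 141 to 176 CPM in imbibed tcp14-labelled seeds. Summed pollen markers stood at 94.1 to 104 CPM in dry wild type, 53.6 to 57.7 in dry mpk8 and 109 to 149 in dry tcp14-labelled seeds, and all 4 were at 0 in imbibed wild type. In whole seeds fewer cells of a type and less RNA per cell cannot be told apart, and the part of these markers in the members' differences was not tested.

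The 6 groups were ordered by mean level. For ABI3 imbibed mpk8 led, and its libraries overlapped those of imbibed tcp14-labelled seeds, next in order. For FUS3 dry mpk8 led and dry wild type followed without overlap, and the lowest pair, imbibed wild type and imbibed tcp14-labelled seeds, overlapped. For ABI4 imbibed wild type led without overlap, and the 3 dry groups overlapped each other in order. For WRI1 and VAL1 imbibed mpk8 led, without overlap with the next group for WRI1 and with overlap for VAL1. For PKL every neighbouring pair overlapped.

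Across the 18 libraries the genes most like each member were taken from 7799 tested genes with a symbol by Pearson's r of log2 CPM. The libraries share their 6 groups, so r mostly reads group differences, and no test was made. ABI4 was most like BGAL10 (r = 0.996) and FKBP15-2 (0.996), VAL2 like ISA1 (0.986) and NAT12 (0.985), and ABI3 like GRF8 (0.982) and NAC014 (0.976). L1L was most like PERK14 (0.979) and OBF5 (0.978), FUS3 like TLP3 (0.946) and RFC3 (0.937), VAL1 like IQD14 (0.934) and PI4K GAMMA 7 (0.912), and WRI1 like RCP1 (0.928) and QUA1 (0.926). PKL, the flattest member, had the lowest values, with NRPA1 (0.867) and CUL3B (0.838). Among the members themselves ABI4 and L1L ran opposite (r = -0.955) and ABI4 and VAL2 together (0.953).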

How the data were processed

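Members and lists were chosen with earlier results of these data known. Per the labels, polyadenylated RNA was made into stranded paired-end libraries, and the submitters' processing notes name TopHat2, Bowtie2 and TAIR10, without versions. Per the file headers, the authors counted read pairs per transcript model, properly paired on the same reference and reversed strands, treating singletons as unmapped and removing pairs with equally good hits. These deposited counts were used as they are, 12170793 to 21233207 pairs per library. How the authors treated overlapping and antisense genes is not given in the sources used here. Names and promoters came from TAIR10.1, in which 32835 of 33602 loci were found and 10654 have a symbol.

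In R 4.3.3, edgeR 4.0.16 with limma 3.58.1 kept 18061 loci by filterByExpr and fitted them by quasi-likelihood with TMM scaling and a mean for each of the 6 groups. Calls are Benjamini-Hochberg adjusted p under 0.05 over all genes in each of 11 comparisons, with no minimum fold. SE were recovered from each F statistic and its log2 fold change. The script was tested on simulated data. CPM use effective library sizes, and likeness used log2 CPM with a prior count of 2. Named are the 10 members, MPK8, TCP14, up to 3 called genes with a symbol and the largest change per list and comparison, and the 2 genes most like each member. ABI5 at 24 h in tcp14-labelled seeds and ACP4 levels are given for comparison between lines. Alternatives were DESeq2 size factors, library totals, DESeq2 1.42.0, no low-count filter, the compared groups alone, a replicate block, single reads, a 1.5-fold minimum, and each library left out. Deviations of libraries of the same replicate number had r from -0.245 to 0.38 over 45 pairs of libraries, median 0.052, with 15 over 0.1. Those of different numbers had r from -0.387 to 0.408 over 90 pairs, median -0.029, with 17 over 0.1. A weak shared part is thus not excluded. The labels do not say what a number marks, so no pairing was used in the main fit. No 2 libraries of a group agreed within sampling noise. Another promoter sequence is not reported here.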

Additional observations from a re-analysis of the deposited data

Results flagged for a closer look

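Of the member values, 4 differed between genotypes by a test of the difference itself, the interaction of genotype and imbibition in edgeR. In mpk8 against wild type these were ABI3 (log2 0.45, adjusted p = 0.000164), FUS3 (0.68, adjusted p = 0.00101) and VAL1 (0.46, adjusted p = 0.0028). In tcp14-labelled seeds against wild type it was VAL1 (0.53, adjusted p = 0.000992). Scaling by library totals took each below the threshold, and the cause of the differences was not tested.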

How the results depend on the processing

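Library totals were the only alternative run that turned the direction of a value called before or after, for VAL1 (0.985) and PKL (1.05) on imbibition of wild type, FUS3 in mpk8 (0.35) and PKL in tcp14-labelled seeds (0.71), for VAL2 (-0.23) and PKL (-0.14) in mpk8 against wild type at 24 h, for VAL1 (-0.047), VAL2 (-0.30) and PKL (-0.24) in tcp14-labelled seeds against wild type at 24 h, and for PKL in the tcp14 interaction (-0.35). The mpk8 interaction then called 0 members and the tcp14 interaction 3, all lower, where 12% of the tcp14 interaction calls of all genes were higher. With DESeq2, DESeq2 size factors or single reads all 11 counts of called members stayed within 1.5 times. Dry tcp14-labelled against wild-type seeds gave 4 members without the low-count filter and 4 from the compared groups alone, which gave 1 for mpk8 against tcp14 at 24 h. A 1.5-fold minimum left 5 on imbibition in mpk8, 4 in tcp14-labelled seeds, 2 for mpk8 and 0 for tcp14 against wild type at 24 h, 0 for tcp14 against wild type dry, 0 and 1 between the lines dry and at 24 h, and 0 in each interaction. Leaving out 1 library gave, on imbibition, 6 to 6 members (wild type), 7 to 8 (mpk8) and 6 to 7 (tcp14-labelled), 0 to 0 dry and 6 to 6 at 24 h for mpk8 against wild type, 1 to 2 and 3 to 4 for tcp14, 3 to 4 and 1 to 3 between the lines, and 3 to 4 and 1 to 2 in the interactions. Replicate numbers were not used to pair libraries in the main fit. A replicate block kept all 11 counts within 1.5 times and changed 1 member's call, ABI3 in dry tcp14-labelled seeds (0.18, adjusted p = 0.0424). Depth limits LEC1, LEC2, dry ABI4, dry WRI1 and imbibed L1L.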
